A study of Homo sapiens with 22 samples.

Results

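IGFBP5 and IGFBP2 encode secreted insulin-like growth factor (IGF) binding proteins, and their RNA was followed across 11 established human glioblastoma cell lines. They are 2 of the 6825 genes that have a row in either of the deposited tables. IGFBP5 (ENSG00000115461) has a row in both, and IGFBP2 (ENSG00000115457) only in the table of 3 lines. The genes were selected on their measured levels over the lines, IGFBP5 being the most-read listed gene in 3 of them, so these levels are a description and carry no test. The lines were grown untreated in serum-containing medium, and poly(A) RNA of each was sequenced in 2 libraries. KNS-42, LN-18, LN-229 and A-172 were in DMEM, T98G, U-138MG, U-87MG and AM-38 in EMEM, and KALS-1, SNU-1105 and SNU-466 in RPMI medium. Serum was at 20% for AM-38 and 10% for every other line, so the serum concentration of AM-38 and the line itself cannot be told apart. One table holds 2221 genes for T98G, KALS-1, LN-18, KNS-42, SNU-1105, U-138MG, LN-229 and U-87MG, and the other 5383 genes for SNU-466, A-172 and AM-38.

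IGF binding proteins hold IGF1 and IGF2 outside the cell and set how much of either ligand reaches the IGF1 receptor, either by keeping it away or by storing and releasing it when proteases cut the binding protein. IGFBP5 also attaches to extracellular matrix, and IGFBP2 carries an integrin-binding sequence and has been described as a marker of high-grade glioma. Both proteins have been reported to act on cells without IGF as well.

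The genes lie next to each other on the long arm of chromosome 2 and point tail to tail. In GENCODE 29 (GRCh38), IGFBP2 spans chr2:216632828-216664436 on the plus strand and IGFBP5 spans chr2:216672105-216695525 on the minus strand, with 7.668 kb between their 3′ ends. The longest coding transcript of IGFBP5 has 4 exons and 6215 bases, of which 816 (13.1%) are coding and the rest untranslated. That of IGFBP2 also has 4 exons but only 1439 bases, of which 975 (67.8%) are coding. The 250 bases upstream of each start are shown so that the start regions of these neighbours can be compared (RefSeq, GRCh38.p14). That of IGFBP5 is chr2:216695550-216695799, read on the minus strand, with a TATTTAA run in capitals. That of IGFBP2 is chr2:216633170-216633419 on the plus strand, the 1 of its 3 listed windows nearest to the start of the full-length coding transcript, with GGGCGG, the core of a GC box, in capitals.
IGFBP5: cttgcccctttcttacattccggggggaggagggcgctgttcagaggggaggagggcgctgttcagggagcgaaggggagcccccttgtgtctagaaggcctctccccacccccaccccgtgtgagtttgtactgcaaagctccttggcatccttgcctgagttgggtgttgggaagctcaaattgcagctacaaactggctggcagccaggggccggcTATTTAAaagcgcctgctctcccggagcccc
IGFBP2: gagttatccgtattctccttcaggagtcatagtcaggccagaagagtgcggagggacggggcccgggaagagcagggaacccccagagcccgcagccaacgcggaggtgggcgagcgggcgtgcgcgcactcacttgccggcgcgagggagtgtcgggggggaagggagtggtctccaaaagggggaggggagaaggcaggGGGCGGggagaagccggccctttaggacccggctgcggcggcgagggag

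The IGFBP5 window held TATTTAA once, its first base 31 bases before the start, and held neither GGGCGG nor TATAAA on either strand. The IGFBP2 window held GGGCGG once, 49 bases before the start, and neither of the other motifs. TATTTAA was added after the IGFBP5 sequence had been read. Among 35116 promoter windows of the same length, 4.17% held TATTTAA, 10.7% TATAAA and 42.6% GGGCGG on either strand. The windows also differed in base composition, with 8 CpG and 61.2% G + C in that of IGFBP5, 22 CpG and 69.2% in that of IGFBP2, and medians of 11 CpG and 58% over all windows. The matches are descriptions of the sequence and not binding sites.

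Library totals lay between 16958669 and 21213215 reads, and levels are given in CPM (counts per 1000000 reads of that total). The sources used here do not state how the listed genes were selected, and 99.3% of the 2221 genes had a mean FPKM at least 2-fold apart between the set of T98G, KALS-1 and LN-18 and the remaining 5 lines, and 93.9% of the 5383 genes between SNU-466 and the pair of A-172 and AM-38. IGFBP5 was highest in the same 3 lines, with a mean of 958 FPKM over T98G, KALS-1 and LN-18 against 166 FPKM over the remaining 5. In T98G only 56.1% of genes with at least 50 reads lay within 1.5-fold between its libraries, and in SNU-1105 71.6%, against 87.4% to 97.1% in the other lines. Of 11 glial or glioma markers, 4 had a row in the 8-line table (VIM, SOX2, FABP7 and CHI3L1) and 5 in the 3-line table (GFAP, S100B, NES, SOX9 and FABP7), and they did not move together. VIM was at 1236 to 5406 CPM in all 16 libraries of the 8-line table. SOX2, a factor of neural stem cells, was at 81.96 to 818 CPM and FABP7, a fatty acid carrier of glia, at 12.01 to 107 CPM in KNS-42, LN-229 and SNU-1105, whereas in T98G, LN-18, U-138MG and U-87MG each was at most 0.470 CPM. KALS-1 lay between these groups in SOX2, with 3.09 and 2.14 CPM, and had 0 reads of FABP7. CHI3L1 was at 94.3 to 474 CPM in SNU-1105 and U-87MG and at most 4.22 CPM elsewhere. Of 18 markers of other cell types, 9 had a row in the 8-line table and 10 in the 3-line table, and all of these are given beside the levels of IGFBP5 and IGFBP2.

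IGFBP5 covered more than 3 orders of magnitude in the 8-line table. It reached 7773 and 11818 CPM in T98G, 5026 and 5189 CPM in KALS-1, and 3707 and 3649 CPM in LN-18. KNS-42 followed with 3002 and 2694 CPM, SNU-1105 with 1398 and 1408 CPM, and U-138MG with 1011 and 1023 CPM. In LN-229 it was at 105 and 66.6 CPM, and in U-87MG at 3.07 and 3.19 CPM, which is 63 and 64 reads. In 6 of the 8 lines every library thus lay at 1011 CPM or more, and no library of one line overlapped those of the next. The share of all genes with such separation was not computed. Differences among lines are common here, and 99.7% of the 2095 listed genes that could be tested differed between at least 1 pair of the 8 lines (edgeR quasi-likelihood F test, Benjamini-Hochberg adjusted p under 0.05, highest and lowest line at least 2-fold apart). That test does not require every line to be apart from the next. Of the 3 epithelial markers with a row (CDH1, KRT8 and KRT18, of 4 on the list), the summed level was 66.5 to 124 CPM in T98G, 237 to 254 CPM in KALS-1 and 357 to 377 CPM in LN-18. It was 27.3 to 69.8 CPM in KNS-42, SNU-1105 and LN-229, and 0.798 to 4.10 CPM in U-138MG and U-87MG. CDH1, the adhesion molecule that defines epithelia, was at 0 reads in T98G, LN-229, SNU-1105 and U-87MG and at most 9.75 CPM, while the neuronal marker SYT1 (1 of 2 with a row) was lowest in T98G and high in LN-229 and U-87MG, but also in KNS-42. It was at 0 to 2.30 CPM in T98G, KALS-1, LN-18 and SNU-1105, 12.7 to 17.2 CPM in U-138MG, and 24.9 to 41.5 CPM in KNS-42, LN-229 and U-87MG. The 4 immune markers (CD14, CSF1R, ITGAM and PTPRC) summed to 16.9 to 26.6 CPM in KALS-1 and SNU-1105, 8.69 to 9.08 CPM in U-87MG and at most 2.69 CPM elsewhere. The endothelial KDR (1 of 4 with a row) was at 40.1 to 98.99 CPM in SNU-1105 and U-87MG and at most 0.612 CPM elsewhere, and the part of any of these markers in the IGFBP5 order was not tested.

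The line means were 9796 ± 2861 CPM for T98G, 5108 ± 115 CPM for KALS-1, 3678 ± 41.4 CPM for LN-18, 2848 ± 218 CPM for KNS-42, 1403 ± 7.65 CPM for SNU-1105, 1017 ± 8.26 CPM for U-138MG, 85.8 ± 27.1 CPM for LN-229 and 3.13 ± 0.0843 CPM for U-87MG (SD, n = 2 each). The step between T98G and KALS-1, 1.92-fold, was the least certain of the 8-line order: it was 1.64 times the larger SD of the pair, that of T98G, whose libraries were 1.52-fold apart. The step between LN-18 and KNS-42, 1.29-fold, was 3.81 times the larger SD. Those between KALS-1 and LN-18, between KNS-42 and SNU-1105, and between SNU-1105 and U-138MG were 6.63 to 46.7 times it. The steps on either side of LN-229 were 11.9-fold, from U-138MG, and 27.4-fold, to U-87MG. The larger SD of both pairs was that of LN-229, 27.1 CPM, beside means of 1017, 85.8 and 3.13 CPM. The level in T98G was 3126-fold that in U-87MG, a log2 difference of 11.61. This ratio depended on the scaling, being 5411-fold with TMM factors and 5340-fold with RLE factors, which rescale each library by the bulk of the listed genes only. Those genes held 5.81% to 10.2% of the library reads, and 99.3% of them were at least 2-fold apart between the 2 sets of lines. Over the pooled reads of each line the ratio of T98G to U-87MG was 3095, with an exact 95% interval of 2601 to 3713 that covers counting error only. The labels do not say that both libraries of a line are from different cultures, so the SDs and the p-values reflect variation among these libraries only, and that variation may be technical. In bulk RNA, less RNA per cell and fewer cells with the RNA cannot be told apart.

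**Figure D1:**
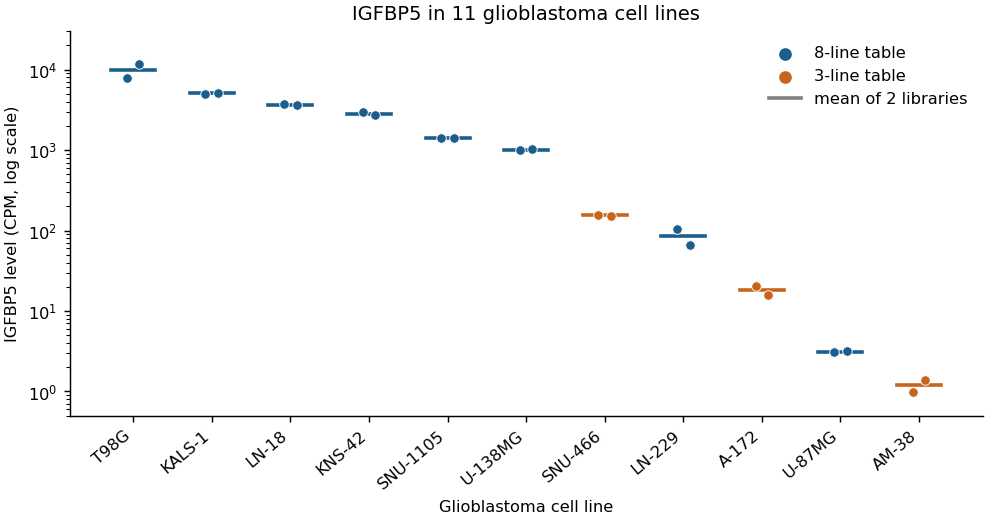
IGFBP5 level (CPM, log axis) in each library of the 11 lines, ordered by line mean, with the mean of 2 libraries as a bar and the table of origin as colour. T98G stands at 9796 CPM and AM-38 at 1.20 CPM, and the libraries of a line lie close together against the distance between most lines.

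In the 3-line table IGFBP5 stood at 157 CPM or less. SNU-466 had 157 and 153 CPM, A-172 had 20.3 and 15.8 CPM, and AM-38 had 0.990 and 1.41 CPM, which is 21 and 28 reads. The means were 155 ± 2.83 CPM in SNU-466, 18.1 ± 3.16 CPM for A-172 and 1.20 ± 0.294 CPM for AM-38 (SD, n = 2 each), and no libraries of different lines overlapped. Of the 5035 tested genes of this table, 98.1% differed among its 3 lines by the same rule, which does not require all lines to be apart. SNU-466 had 130 times the level of AM-38 (log2 difference 7.02, exact 95% interval of the pooled ratio 98.5 to 176, counting error only).

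Setting the tables side by side places SNU-466 between U-138MG and LN-229, A-172 between LN-229 and U-87MG, and AM-38 at the bottom, with an 8178-fold distance between T98G and AM-38. The tables were deposited apart, so this order rests on the library totals alone and was not tested. At the lower end, the gap between SNU-466 and LN-229 was 2.57 times, and that between LN-229 and A-172 2.49 times, the larger SD of the pair, which in both cases is that of LN-229, whose libraries were 1.58-fold apart. Lines grown in the same medium also differed in IGFBP5, and the part of the medium was not tested. T98G at the top and AM-38 at the bottom were both in EMEM, as were U-138MG with 1017 CPM and U-87MG with 3.13 CPM. Among the DMEM lines LN-18 had 3678, KNS-42 2848, LN-229 85.8 and A-172 18.1 CPM. In RPMI medium, KALS-1 had 5108, SNU-1105 1403 and SNU-466 155 CPM.

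As a share of all reads of a library, IGFBP5 took up 0.777% (Wilson 95% interval 0.773 to 0.781%) and 1.18% (1.18 to 1.19%) in T98G, so that about 1 read in 100 came from this gene. The shares were 0.503% (0.499 to 0.506%) and 0.519% (0.516 to 0.522%) in KALS-1, and 0.371% (0.368 to 0.373%) and 0.365% (0.362 to 0.368%) in LN-18. In these 6 libraries it was the gene with the most reads of all 2221 listed, and it held 10.1% and 12.9% of the listed reads in T98G, 7.96% and 8.14% in KALS-1, and 6.38% and 6.24% in LN-18. The runner-up in T98G was FTL, the ferritin light chain, at 6086 and 11093 CPM, and the distance between the genes was smaller than the difference between the T98G libraries. FTL was also next in LN-18, at 2745 and 2957 CPM, and the filament protein vimentin (VIM) in KALS-1, at 2399 and 2269 CPM.

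In KNS-42 IGFBP5 came second to VIM, which had 4763 and 5031 CPM. It stood 6th and 8th in the libraries of SNU-1105 and 12th in both of U-138MG, where the matrix protein fibronectin (FN1) came first with 10626 and 11860 CPM and with 14292 and 15204 CPM. In LN-229 it was 174th and 228th, and in U-87MG 905th in both libraries. Reads per gene favour long transcripts, and scaled to length IGFBP5 was 2nd in T98G and 3rd in KALS-1 and LN-18. In the 3-line table it was 445th and 457th of 5383 genes in SNU-466, 1614th and 1795th in A-172, and 3706th and 3464th in AM-38.

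**Figure D2:**
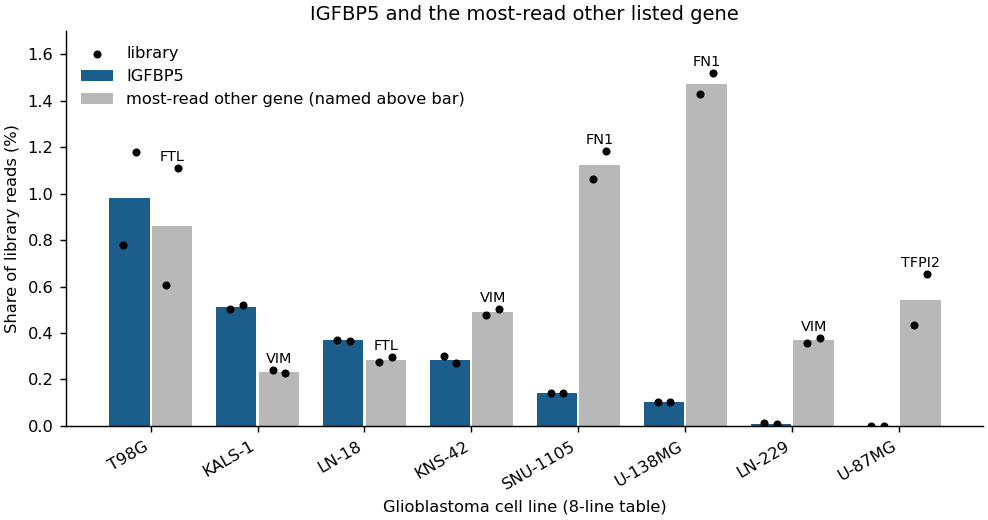
Share of all library reads (%) taken by IGFBP5 (blue bars, mean of 2 libraries) and by the most-read other listed gene of the same line (grey bars, gene named above), with points for libraries, in the 8-line table. IGFBP5 exceeds every other listed gene in T98G, KALS-1 and LN-18, and in T98G its libraries, 0.777% and 1.18%, overlap in range with those of FTL, 0.609% and 1.11%.

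IGFBP2 fell into 3 separate levels in the 3 lines in which it was listed. SNU-466 had 981 and 1060 CPM (16641 and 20811 reads), A-172 had 11.5 CPM in both libraries (224 and 232 reads), and AM-38 had 1 read and 3 reads. The means were 1021 ± 55.6 CPM in SNU-466, 11.5 ± 0.0212 CPM for A-172 and 0.0989 ± 0.0732 CPM for AM-38 (SD, n = 2 each). SNU-466 was 88.8-fold above A-172. The AM-38 value is at or under the 0.141 to 0.177 CPM that a count of 0 allows per library (3 reads), so the IGFBP2 transcript was close to undetected there. The ratio of SNU-466 to AM-38 over pooled reads was 10525 with an exact 95% interval of 4110 to 38629, wide because it rests on 4 reads in AM-38. Markers of other cell types also differed among these lines, and of the single genes of that kind with a row only COL1A2 had the order of IGFBP2. Of the fibroblast or mural markers 2 of 4 had a row (COL1A2 and ACTA2), and their sum was 10405 to 10422 CPM in SNU-466, 132 to 140 CPM in A-172 and 60.1 to 61.9 CPM in AM-38. COL1A2 alone, at 10220 and 10197 CPM in SNU-466, 125 and 120 CPM in A-172 and 0.801 and 0.653 CPM in AM-38, had the order of IGFBP2. ACTA2 was also highest in SNU-466, at 202 and 208 CPM, but had 14.6 and 11.8 CPM in A-172, below the 61.1 and 59.5 CPM in AM-38. The epithelial keratins KRT8 and KRT18, 2 of 4 with a row, ran the other way in SNU-466, at 0.413 to 0.611 CPM in sum, against 1918 to 1997 CPM in A-172 and 281 to 304 CPM in AM-38. SYT1 was likewise lowest in SNU-466, at 3.48 and 4.02 CPM, against 46.97 and 47.5 CPM in A-172 and 29.6 and 32.03 CPM in AM-38. The endothelial CDH5 and PECAM1 (2 of 4 with a row) summed to at most 0.0509 CPM in SNU-466, 2.08 to 3.28 CPM in A-172 and 5.77 to 6.84 CPM in AM-38, with CDH5 at 0 reads in SNU-466. The 3 immune markers with a row (CSF1R, ITGAM and PTPRC, of 4) summed to at most 0.177 CPM in SNU-466, 5.84 to 6.10 CPM in A-172 and 1.46 to 2.12 CPM in AM-38. The glial markers divided. The 5 with a row summed to 2236 to 2243 CPM in SNU-466, 508 to 523 CPM in A-172, and 397 to 403 CPM in AM-38, but the sum in SNU-466 was mostly S100B, at 1730 and 1731 CPM, and NES, at 473 and 465 CPM. NES had the order of IGFBP2, with 333 and 322 CPM in A-172 and 133 and 135 CPM in AM-38. GFAP had that order too, at 37.2 and 39.4 CPM in SNU-466, 1.33 and 1.39 CPM in A-172, and 0.377 and 0.251 CPM in AM-38. S100B did not, with 0 and 0.0992 CPM in A-172 and 1.18 and 1.76 CPM in AM-38. Nor did FABP7, at 1.71 and 1.17 CPM in SNU-466, 0.102 and 0 CPM in A-172, and 0.330 and 0 CPM in AM-38. SOX9, a glial transcription factor, ran against IGFBP2, with 3 reads in each library of SNU-466 (0.177 and 0.153 CPM), 189 and 185 CPM in A-172, and 262 and 266 CPM in AM-38. The part of any of these markers was not tested. IGFBP2 ranked 62nd and 56th among the genes by reads in SNU-466, 2006th and 2009th in A-172, and 4773rd and 4511th in AM-38.

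Both genes kept the same order of lines, SNU-466 above A-172 above AM-38, but not the same distances. IGFBP2 spanned 13.33 on the log2 scale against 7.02 for IGFBP5, and the median range over all 5035 tested genes of this table was 3.24. In the 8-line table the range of 11.61 for IGFBP5 compared with a median of 4.75 over 2095 tested genes. Since the genes were selected on their levels, these medians are given for scale only.

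Compared per length, the balance between the genes turned over among the lines. With the deposited FPKM (reads relative to gene length and library total), SNU-466 had 24.35 and 23.73 FPKM of IGFBP5 and 206.93 and 223.5 FPKM of IGFBP2. A-172 had 3.14 and 2.45 FPKM of IGFBP5 and 2.42 and 2.43 FPKM of IGFBP2. AM-38 had 0.15 and 0.22 FPKM of IGFBP5 and 0.01 and 0.03 FPKM of IGFBP2. The ratio of IGFBP5 to IGFBP2 was therefore 0.112 ± 0.00812 in SNU-466, an 8.93-fold excess of IGFBP2, 1.15 ± 0.204 in A-172 and 11.1 ± 6.05 in AM-38 (SD, n = 2 each).

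These ratios depend on the gene length used. The deposited length of IGFBP5, 6466 bases, is 1.04 times its longest coding transcript, but that of IGFBP2, 4742 bases, is 3.30 times its own, close to the 4767 bases covered by the exons of its 5 annotated transcripts, among them one with a retained intron. Scaled to the longest coding transcript, the ratio of IGFBP5 to IGFBP2 was 0.0353 in SNU-466, 0.364 in A-172 and 3.51 in AM-38. In SNU-466 and AM-38 the sign held, and in A-172 it turned, IGFBP2 then being 2.75-fold above IGFBP5. In AM-38 the ratio rests on 49 reads of IGFBP5 and 4 of IGFBP2, with an exact 95% interval of 3.29 to 34.3 by deposited length (counting error only). An antisense RNA, AC007563.2, overlaps the first exon of IGFBP5 on the other strand. It has no row in either table, the kit was strand-specific but the use of strand in counting is not stated, and its part in the IGFBP5 counts was not tested.

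**Figure D3:**
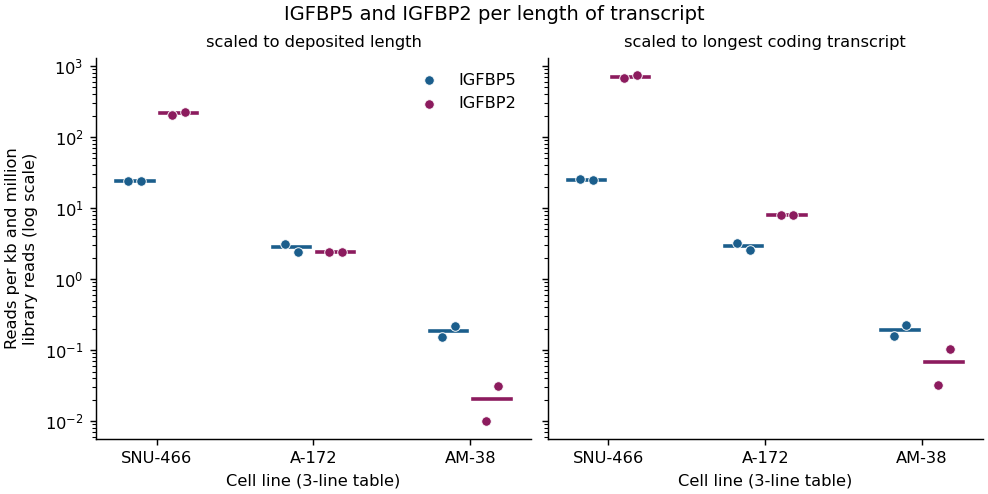
Levels of IGFBP5 (blue) and IGFBP2 (purple) in each library of SNU-466, A-172 and AM-38, as reads per kilobase per 1000000 library reads (log axis), scaled to the deposited gene length (left) and to the longest coding transcript (right), with bars for means of 2 libraries. IGFBP2 is above IGFBP5 in SNU-466 and below it in AM-38 under both lengths, and in A-172 the order depends on the length.

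Among the binding proteins with a row in the 3-line table (IGFBP2, IGFBP3, IGFBP5 and IGFBP6) the leading member was IGFBP3 in SNU-466 and IGFBP6 in A-172 and AM-38, and neither IGFBP2 nor IGFBP5 led in any line. IGFBP3, the main carrier of IGF in blood, made up 64.4% and 62.6% of their summed FPKM in SNU-466, where IGFBP2 made up 29.5% and 31.1% and IGFBP5 3.48% and 3.30%. IGFBP6, which prefers IGF2, made up 79.9% and 79.1% in A-172 and 99.4% and 99.3% in AM-38. IGFBP5 contributed 4.98% and 4.07% in A-172, and 0.0864% and 0.147% in AM-38. The sums themselves were 701 and 719 FPKM in SNU-466, 63.1 and 60.2 FPKM in A-172, and 174 and 150 FPKM in AM-38, so SNU-466 held the most binding protein RNA of these 4 genes. The shares also depend on gene length. Scaled to the longest coding transcript, IGFBP2 made up 43.1% and 44.9% in SNU-466, still under IGFBP3 with 53.98% and 52.05%, and IGFBP5 made up 1.60% and 1.51%. In A-172 IGFBP2 then made up 9.68% and 10.04%, above IGFBP5 with 3.96% and 3.197%, and the leading gene of each line stayed the same.

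The wider IGF axis was described from a list of 35 genes. Of these, 14 had a row in the 3-line table, and all 14 differed among the lines. Setting each line against the average of the others in log units gave 42 gene and line pairs. Of these pairs, 14 (33.3%) were called higher, where 35.2% of all tested gene and line pairs were, and 19 (45.2%) lower, where 32.6% of all were (edgeR quasi-likelihood test, adjusted p under 0.05 and a log2 fold change of at least 1 in size). The median log2 difference was 3.84 in size, and the median range over lines was 5.47 against 3.24 for all tested genes. The counts and the median difference include pairs of IRS4, PAPPA2 and ADAM28 in which another line had 0 reads, so those fold changes lack a finite reference. The higher calls among them, IRS4 in SNU-466 and PAPPA2 and ADAM28 in AM-38, were also made by limma with its prior count. The share called higher is thus close to that of all genes in the table.

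IGF2, the ligand of the list with a row, had 15.7 and 15.8 CPM in SNU-466, 3.64 and 3.82 CPM in A-172 and 3.30 and 2.01 CPM in AM-38. It was called higher in SNU-466 and lower in AM-38, but overlaps INS-IGF2 on its own strand and IGF2-AS on the other, so its counts are uncertain. H19, the imprinted RNA beside IGF2, was called higher in SNU-466, with 42.0 and 35.4 CPM, against 0.236 to 0.645 CPM in the other lines. IGF1R, the receptor that signals for both ligands, had 135 and 128 CPM in SNU-466, 30.4 and 29.2 CPM in A-172, and 76.6 and 80.1 CPM in AM-38. It was called higher in SNU-466 (log2 fold change 1.45, SE 0.0536) and lower in A-172 (log2 fold change -1.77, SE 0.0626). IRS4, a docking protein of that receptor, had 1.77 and 1.48 CPM in SNU-466 and 0 reads in A-172 and AM-38.

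The other binding proteins went in opposite directions. IGFBP3 had 2060 and 2058 CPM in SNU-466, 32.5 and 35.1 CPM in A-172, and 4.05 and 3.87 CPM in AM-38, so the order of lines was that of IGFBP5 and IGFBP2. Its log2 fold change in SNU-466 against the other lines was 7.47 (SE 0.0451, adjusted p = 1.18e-100, edgeR). IGFBP6 had 232 and 200 CPM in AM-38, 67.9 and 64.2 CPM in A-172, and 24.6 and 29.2 CPM in SNU-466, the reverse order. It was called higher in AM-38 (log2 fold change 2.36, SE 0.0530, adjusted p = 5.89e-57, edgeR).

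Proteases that cut these binding proteins divided between SNU-466 and AM-38. PAPPA, which cleaves IGFBP4 and IGFBP5, was at 175 and 177 CPM in AM-38, against 0.531 and 1.07 CPM in SNU-466 and 0.359 and 0.149 CPM in A-172 (log2 fold change in AM-38 8.58, SE 0.106, adjusted p = 1.47e-76, edgeR). PAPPA2, which cleaves IGFBP3 and IGFBP5, was at 74.9 and 80.01 CPM in AM-38, 1.43 and 1.39 CPM in A-172 and 0 reads in SNU-466. AM-38, the line with the least IGFBP5 RNA, thus had the highest RNA level of both enzymes. STC1, a stanniocalcin that inhibits PAPPA, was also highest there, at 193 and 202 CPM, against 27.3 and 27.2 CPM in A-172 and 3.77 and 4.84 CPM in SNU-466. The collagenase MMP1 had 3098 and 3166 CPM in AM-38, 3.94 and 4.71 CPM in A-172 and 0.649 and 0.611 CPM in SNU-466. ADAM28, a metalloprotease reported to cut IGFBP3, was at 1.79 and 1.10 CPM in AM-38, 0.256 and 0.0496 CPM in A-172 and 0 reads in SNU-466. PAPPA, PAPPA2, MMP1 and ADAM28 lie opposite other annotated genes, and with strand use in counting not stated their counts are uncertain to that extent.

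Other enzymes were highest in SNU-466. HTRA1, a serine protease reported to cleave IGFBP5, had 500 and 509 CPM there, against 14.3 and 12.7 CPM in A-172 and 11.7 and 11.1 CPM in AM-38 (log2 fold change 5.34, SE 0.0508, adjusted p = 9.10e-86, edgeR). CTSD, the lysosomal protease cathepsin D, had 3678 and 4027 CPM in SNU-466, 574 and 544 CPM in A-172, and 116 and 106 CPM in AM-38 (log2 fold change 3.95, SE 0.0343). Both overlap a listed gene in the annotation, so reads may be shared, and IGF1R, IRS4 and H19 overlap annotated genes as well. IGF2BP1, an RNA-binding protein named for IGF2 mRNA, stood apart from the rest, with 72.3 and 72.0 CPM in A-172 and at most 0.141 CPM in the other lines. It overlaps annotated genes on both strands. In all, SNU-466 had 7 of the 14 genes called higher and 7 lower, where 38.7% and 55.2% of all tested genes were called in that line. AM-38 had 6 and 6, beside 35.8% and 25.5% of all genes, and A-172 1 higher and 6 lower, beside 31.0% and 17% (edgeR quasi-likelihood test, same thresholds).

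**Figure D4:**
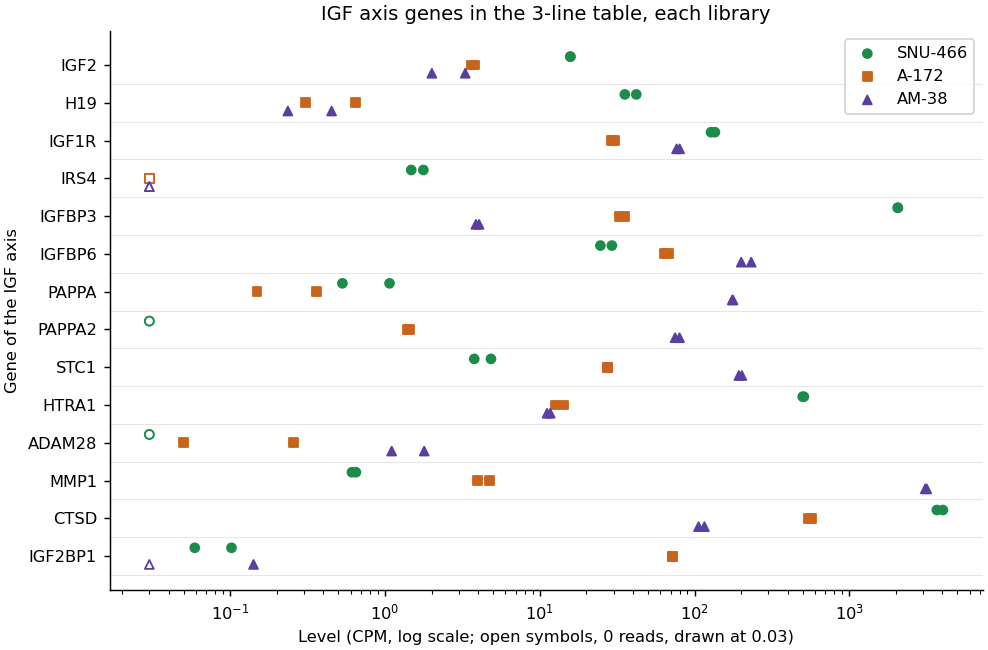
Levels (CPM, log axis) of the 14 IGF axis genes with a row in the 3-line table, in each library of SNU-466 (circles), A-172 (squares) and AM-38 (triangles); open symbols at 0.03 stand for 0 reads. IGFBP3, HTRA1 and CTSD are highest in SNU-466, and IGFBP6, PAPPA, PAPPA2, STC1 and MMP1 in AM-38.

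In the 8-line table only GRB10, HTRA1 and PAPPA2 of the same list had a row, and all 3 differed among the lines. Of 24 gene and line pairs 9 (37.5%) were called higher and 8 (33.3%) lower, against 28.6% and 17.6% of the pairs of all tested genes (edgeR quasi-likelihood test, same thresholds). The median log2 difference was 1.49 in size and the median range over lines 5.29, against 4.75 for all tested genes. The number of lower calls depended on single libraries, being 5 without replicate 2 of KNS-42 or without replicate 1 of T98G.

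HTRA1 had 17.5 and 45.9 CPM in T98G and 17.3 and 15.1 CPM in LN-18, lines with high IGFBP5, and was called lower in both (log2 fold change -2.80, SE 0.294, and -3.91, SE 0.319). KALS-1, between them in IGFBP5, had 264 and 245 CPM of HTRA1 and no call. The most HTRA1 was in SNU-1105, with 598 and 675 CPM, where it was called higher (log2 fold change 2.14, SE 0.195), as in KNS-42 with 403 and 325 CPM and U-138MG with 393 and 404 CPM. The call in KNS-42 was lost with TMM and RLE factors and without T98G, and that in U-138MG without T98G. PAPPA2 was at 38.4 and 72.3 CPM in U-87MG, the line with the least IGFBP5 of the 8, and at 41.3 and 48.2 CPM in U-138MG. It had at most 4.95 CPM in the other 6 lines. GRB10, an adaptor that binds the IGF1 receptor and dampens its signal, had 314 and 271 CPM in SNU-1105, 290 and 252 CPM in LN-229, and 293 and 240.01 CPM in U-87MG, and was called higher in all 3. It had 48.4 and 49.9 CPM in LN-18 and 39.0 and 31.8 CPM in KNS-42, and was called lower in both, though in LN-18 not with RLE factors.

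A second list held 19 surface and matrix molecules reported to bind IGFBP5 or IGFBP2. Of these, 6 had a row in the 8-line table and all 6 differed among the lines, with 17 of 48 gene and line pairs (35.4%) called higher and 20 (41.7%) lower, a median log2 difference of 2.87 in size and a median range of 8.38. A row in the 3-line table was found for 12 and all 12 differed, with 15 of 36 pairs (41.7%) higher and 16 (44.4%) lower, a median log2 difference of 3.03 in size and a median range of 6.47. In both tables the shares called, in either direction, were above those over all tested genes, which were 28.6% higher and 17.6% lower in the 8-line table and 35.2% higher and 32.6% lower in the 3-line table (edgeR quasi-likelihood test, same thresholds). The median ranges over all tested genes were 4.75 and 3.24 in these tables. The list was written with earlier results of these data known, so its distance from all tested genes is a description only. Leaving out single libraries gave 14 to 20 lower calls for the partners in the 8-line table, against 20 with all libraries.

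In T98G 5 of the 6 partner genes were called lower and 0 higher, where 30.1% of all tested genes were called lower and 20.7% higher, so lower calls were common in that line. In LN-18 it was also 5 and 0, beside 24.9% and 31.0% of all genes, and in KALS-1 3 and 0, beside 19.5% and 24.1%. With TMM or RLE factors 4 were called lower in T98G, FN1 being lost, and 4 in LN-18, ITGB3 being lost, while 20.9% or 20.4% of all genes were lower in T98G. In SNU-1105 and U-87MG 5 were called higher and 0 lower, beside 25.8% and 33.1% of all genes called higher and 8.78% and 16.2% lower, and the call of FN1 in U-87MG was lost with TMM and RLE factors. KNS-42 had 1 higher and 3 lower, beside 33.0% and 13.7% of all genes, U-138MG 3 and 3, beside 33.5% and 16.0%, and LN-229 3 and 1, beside 27.9% and 12%. Among these higher calls, PTPRZ1 in SNU-1105 and FN1 in U-87MG were below the plain average of the remaining lines, as were SPP1 in LN-229 and AM-38 and PAPPA2 in SNU-1105. ITGA5, an integrin chain that pairs as a receptor for fibronectin and for IGFBP2, had 77.0 and 56.6 CPM in T98G and 28.5 and 28.6 CPM in KNS-42, called lower in both, and 932 and 761 CPM in SNU-1105, the highest value. ITGB3, a chain of the vitronectin receptor, had 263 and 308 CPM in U-87MG and 265 and 179 CPM in LN-229, and at most 24.7 CPM in the other 6 lines. ITGB3 overlaps a listed gene in the annotation and ITGA5 lies opposite annotated genes, so reads may be shared. The secreted integrin ligand SPP1 (osteopontin) had 401 and 369 CPM in U-87MG, 460 and 163 CPM in SNU-1105 and 83.5 and 80.8 CPM in LN-229, against at most 9.47 CPM elsewhere.

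PTPRZ1, a receptor phosphatase reported to bind IGFBP2, had a row in both tables. It had 857 and 854 CPM in SNU-466, the line with the most IGFBP2, and at most 0.151 CPM in A-172 and AM-38. In the 8-line table it was at 416 and 221 CPM in LN-229 and 149 and 119 CPM in KNS-42, and at most 22.7 CPM in the other 6 lines. The proteoglycans SDC2 and SDC3 had 819 and 817 CPM and 1296 and 1343 CPM in SNU-466, where both were called higher, whereas SDC1, of the same family, had 39.9 and 37.6 CPM there, against 283 and 271 CPM in A-172 and 257 and 243 CPM in AM-38, and was called lower in SNU-466. The adhesive matrix proteins FN1, THBS1 and COL4A1 were called higher in SNU-466, THBS1 with 10281 and 9972 CPM, and both THBS1 and COL4A1 overlap a listed gene in the annotation. The protease PLAT, SPP1 and the cytoplasmic IGFBP5 partner FHL2 were among those called lower there. FHL2 had 557 and 535 CPM in AM-38, 27.1 and 27.8 CPM in A-172, and 12.6 and 11.97 CPM in SNU-466. ITGAV was called lower in AM-38, with 112 and 118 CPM, and had 349 and 335 CPM in SNU-466 and 256 and 304 CPM in A-172. FHL2 overlaps a listed gene and ITGAV lies opposite an annotated gene, so their counts are uncertain to that extent.

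Few neighbours of the genes on chromosome 2 were listed. Within 1 Mb of either gene the annotation holds 43 others, 8 of them protein-coding, and 5 had a row in a table. The nearest protein-coding neighbours, RPL37A and SMARCAL1 on the IGFBP2 side and TNP1 on the IGFBP5 side, had none. MREG, a melanosome transport protein gene 599 kb away, had 29.5 and 34.6 CPM in KNS-42 and 30.9 and 25.1 CPM in LN-229. It had 2.70 and 7.71 CPM in T98G and 4.84 and 5.00 CPM in KALS-1, the lines with the most IGFBP5. KNS-42, where MREG was highest, had 2848 CPM of IGFBP5, and U-138MG, with less IGFBP5, had 7.96 and 7.73 CPM of MREG. LINC01963, 413 kb away, had 7.68 to 9.34 CPM in KALS-1 and LN-18 and 10.6 to 28.3 CPM in the other lines. ENSG00000279348, 419 kb away, had 3.57 to 3.91 CPM in KALS-1 and LN-18 and 6.41 to 15.6 CPM in the other lines. The lincRNA DIRC3, 588 kb away, had 14.4 and 15.8 CPM in AM-38 and at most 0.306 CPM in A-172 and SNU-466, so it was highest in the line with the least of both binding proteins. TMEM169, 530 kb away, had 5.66 and 4.53 CPM in SNU-466, 1.38 and 1.54 CPM in A-172 and 0.330 and 0.301 CPM in AM-38. That is the order of lines of both binding proteins, and no neighbour was tested against them. FN1 and TNS1 lie just past 1 Mb, on either side, and had a row in both tables. In U-138MG, SNU-1105 and SNU-466 the actin-linker gene TNS1 had 230 to 415 CPM, and at most 16.9 CPM in the other lines, T98G included with at most 0.106 CPM.

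The genes whose pattern over the 8 lines was most like that of IGFBP5 were ranked by the Pearson correlation of line means of log2(CPM + 1), among 756 listed genes with a mean of at least 10 CPM. The first 5 were P3H2 (0.916), FHL1 (0.898), SLC46A3 (0.897), SEPTIN6 (0.885) and PLCB4 (0.871). P3H2, a prolyl 3-hydroxylase that modifies collagen, had 337 and 195 CPM in T98G, 217 and 213 CPM in KALS-1, and 178 and 175 CPM in LN-18, against 10.9 and 11.3 CPM in U-87MG. FHL1, a LIM domain protein of muscle and other cells, had 231 and 175 CPM in T98G, 316 CPM in both libraries of KALS-1, and 323 and 305 CPM in LN-18, against 26.6 and 23.1 CPM in U-87MG and 21.9 and 15.5 CPM in LN-229. In all 12 of 756 genes (1.59%) reached 0.8, and 31 reached -0.8 or lower.

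The most opposed genes were MCTP1 (-0.943), TMPRSS15 (-0.942) and SERPINB8 (-0.918). MCTP1, a calcium-binding membrane protein gene, had 112 and 119 CPM in U-87MG, against 0.689 and 0.467 CPM in T98G. TMPRSS15, the intestinal enteropeptidase, had 300.4 and 225 CPM in U-87MG, against 0 reads in T98G. SERPINB8, an intracellular serine protease inhibitor, had line means of 112 CPM in U-87MG and 22.8 CPM in LN-18, the extremes of a narrower range. Its T98G libraries lay apart, at 38.1 and 13.1 CPM, on either side of the 23.1 and 22.5 CPM of LN-18. The 8 points share libraries, depth and the split of lines on which nearly all listed genes differ, and U-87MG lies far below the other lines in IGFBP5, so the coefficients are a description of 8 lines. No likeness was ranked for IGFBP2, which has values in 3 lines only.

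**Figure D5:**
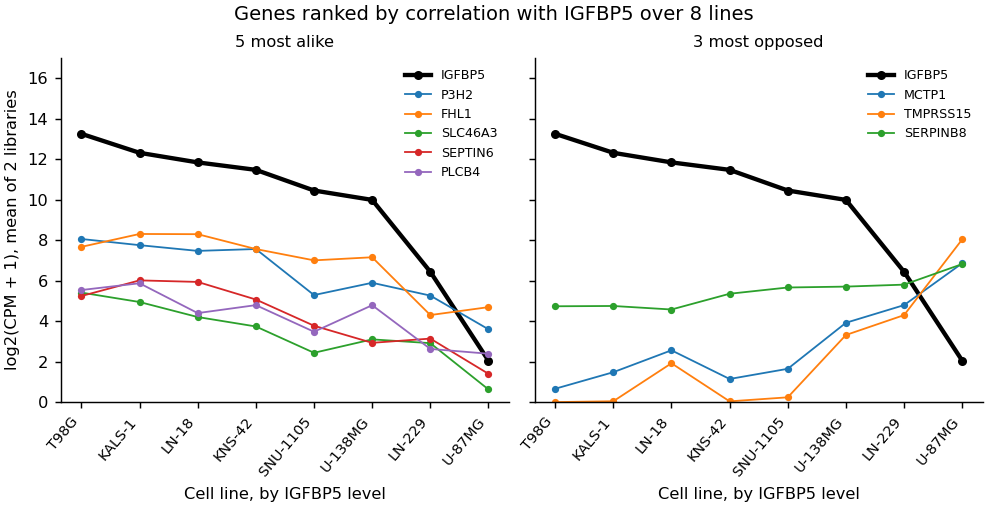
Line means of log2(CPM + 1) over the 8 lines, ordered by IGFBP5 level (black), for the 5 genes most alike (left) and the 3 most opposed (right) by Pearson correlation. The 5 alike genes are at their lowest or near it in U-87MG and LN-229, and the 3 opposed genes are at their highest in U-87MG.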

How the data were processed

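The authors deposited raw read counts, the gene length and FPKM per gene and library, in separate tables for 8 and 3 lines. The submitters' processing notes name HISAT2 2.2.1, StringTie 1.3.3, HTSeq 0.6.0, cutadapt 1.9.1 and FastQC 0.10.1 and the GRCh38 build, without saying what each did. Neither the annotation release nor the choice of the listed genes is given in the sources used here. Library totals were worked back from the deposited counts, lengths and FPKM from genes reaching 20 FPKM and 200 reads, which differed by at most 0.0258% in the total they gave. CPM relates reads to these totals, and shares carry Wilson intervals for counting error only. Symbols were found for 2220 of the 2221 IDs and for 5382 of the 5383 IDs.

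Each table was fitted apart with edgeR 4.0.16 (R 4.3.3), using its quasi-likelihood test on the deposited counts, with 1 coefficient per line, the totals as offsets and the low-count filter by line. The alternatives were TMM and RLE factors, no filter, DESeq2 1.42.0, limma 3.58.1 (prior count 2), the replicate block and leaving out libraries. The fits were tested on simulated data. The test against the mean of the other lines has no finite reference where another line is at 0 reads, so no fold change is given for such genes. Their calls and fold changes still enter the counts of calls and the median differences. Genes named are IGFBP5, IGFBP2, every listed member of the gene lists, and the 5 most and 3 least alike genes. A binding partner that these rules name is not reported here, though the counts of calls include it. The members and lists were chosen with earlier results of these data known.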

Additional observations from a re-analysis of the deposited data

How the results depend on the processing

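Counts of calls for the IGF axis and for the binding partners kept within 1.5 times the reported value under TMM and RLE factors, no filter, DESeq2 and limma, and when T98G was left out. Leaving out single libraries gave 5 to 8 lower calls for the IGF axis in the 8-line table, against 8 with all libraries, the 5 being without KNS-42 replicate 2 and without T98G replicate 1. The log2 range of IGFBP5 over the 8 lines, 11.61, was 12.40 with TMM factors, 12.38 with RLE factors and 10.67 without T98G (KALS-1 over U-87MG, 1630-fold; chosen after seeing the data), and 11.28 to 11.88 when single libraries were left out. In the 3-line table it was 6.50 with RLE factors against 7.02. For IGFBP2, leaving out 1 library gave 12.73 to 14.40 against 13.33. Scaled to the longest coding transcript, a choice made after seeing the data, the log2 ratio of IGFBP5 to IGFBP2 was -4.82 in SNU-466 (reported -3.16), 1.697 in AM-38 (3.36) and -1.47 in A-172 (0.19), where its sign turned. TMM and RLE factors moved the median of all genes by up to 0.58 and 0.62, in T98G. Of the genes called higher or lower in that line, 55.2% and 56.3% were then called higher, against 40.7% with library totals.

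Of 2003 values for 118 calls of single genes, 1951 kept direction and side of the threshold, 52 lost the call and 0 changed direction. Same-numbered libraries showed little common deviation: over 28 pairs of lines in the 8-line table the correlation of same-numbered deviations lay between -0.153 and 0.110. Over the 3 pairs in the 3-line table it lay between -0.0591 and 0.0909. These values cannot show whether same-numbered libraries were prepared together. With the replicate block the IGF axis counts were 9 higher and 8 lower in the 8-line table, and the only single-gene call lost was that of SPP1 in U-138MG against the other lines (log2 fold change -0.964, against -1.02). Depth limits IGFBP2 in AM-38 (4 reads) and IGFBP5 in AM-38 (49 reads) and U-87MG (127 reads).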
